A study of Mus musculus with 8 samples.

Results

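The transcripts described are those of 9 cadherin genes, Cdh2, Cdh4, Cdh7, Cdh8, Cdh9, Cdh10, Cdh11, Cdh12 and Cdh13, in the striatum of 8 mice. They were taken as every array probe set assigned to exactly 1 gene with one of these symbols, which gave 22 of 45037 probe sets that were not controls and 8 of 18193 genes. Cdh12 had no such probe set in the annotation used here and was not analysed here. The 9 genes were chosen from the classical cadherins with their values in mutant and wild-type mice already known, so their differences between the genotypes are given as a description, with no p-value for a member.

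The mutant group held 4 CHL2 mice and the control group 4 wild-type mice, all 22 months old and labelled as hybrids (C57BL/6 X CBA F1). CHL2 mice model Huntington's disease by a knock-in: a run of 150 CAG repeats, taken from exon 1 of the human disease gene, replaces the matching stretch of the mouse's own gene, and the series' design text gives the mutants as carrying it on both copies. Females made up 3 of the 4 mutants (mice 141, 153 and 154, with the male 191) and 1 of the 4 wild-type mice (161, with the males 170, 180 and 200). Total RNA of each striatum was read on 1 Affymetrix Mouse Genome 430 2.0 array, and no label says whether any of the animals were littermates.

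Cadherins are calcium-dependent adhesion molecules that span the plasma membrane and bind cadherins, most strongly of the same or a close kind, on the next cell. In a classical cadherin the tail inside the cell holds beta-catenin and a member of the p120 family, and through alpha-catenin the complex meets actin. In the brain each region and neuron type carries its own mix of them, and they act in the sorting of neurons into nuclei, in the outgrowth of axons and at synapses. Cdh2 (N-cadherin) and Cdh4 (R-cadherin) are type I classical cadherins, and Cdh7 to Cdh12 are of type II, which differs from type I in the adhesive surface of the outermost domain. Cdh13 (T-cadherin) has the extracellular domains but neither a membrane-spanning segment nor a catenin-binding tail, and is held to the membrane by a lipid anchor, so it is classical only in part.

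Mutant striatum had lower levels of 6 of the 8 measured genes, namely Cdh4, Cdh7, Cdh8, Cdh9, Cdh11 and Cdh13, and for each of these the values of the 4 mutants lay under those of all 4 wild-type mice. Cdh4 differed most, 2.48-fold, and the other 5 by 1.37-fold to 1.64-fold. Cdh2 and Cdh10 overlapped between the groups. All values are log2 RMA values, a normalized measure of array signal in which a step of 1 is a doubling, and each gene is given by its brightest probe set unless another is named. Differences are mutant minus wild type from limma's linear model over all genes with sex as a term, so they can depart from the plain difference of the group means.

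In that model 6 of the 8 members passed an adjusted p of 0.05, all of them lower in the mutants, and 0 were higher. Of all 18193 genes 12.4% passed, 6.40% higher and 6.01% lower. Groups were fully apart in 6 of the 8 members and in 20.7% of all genes. Their median log2 difference was -0.59, against 0.01 over all genes. Because the members were picked with this comparison in view, nothing is read from these counts.

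**Figure D1:**
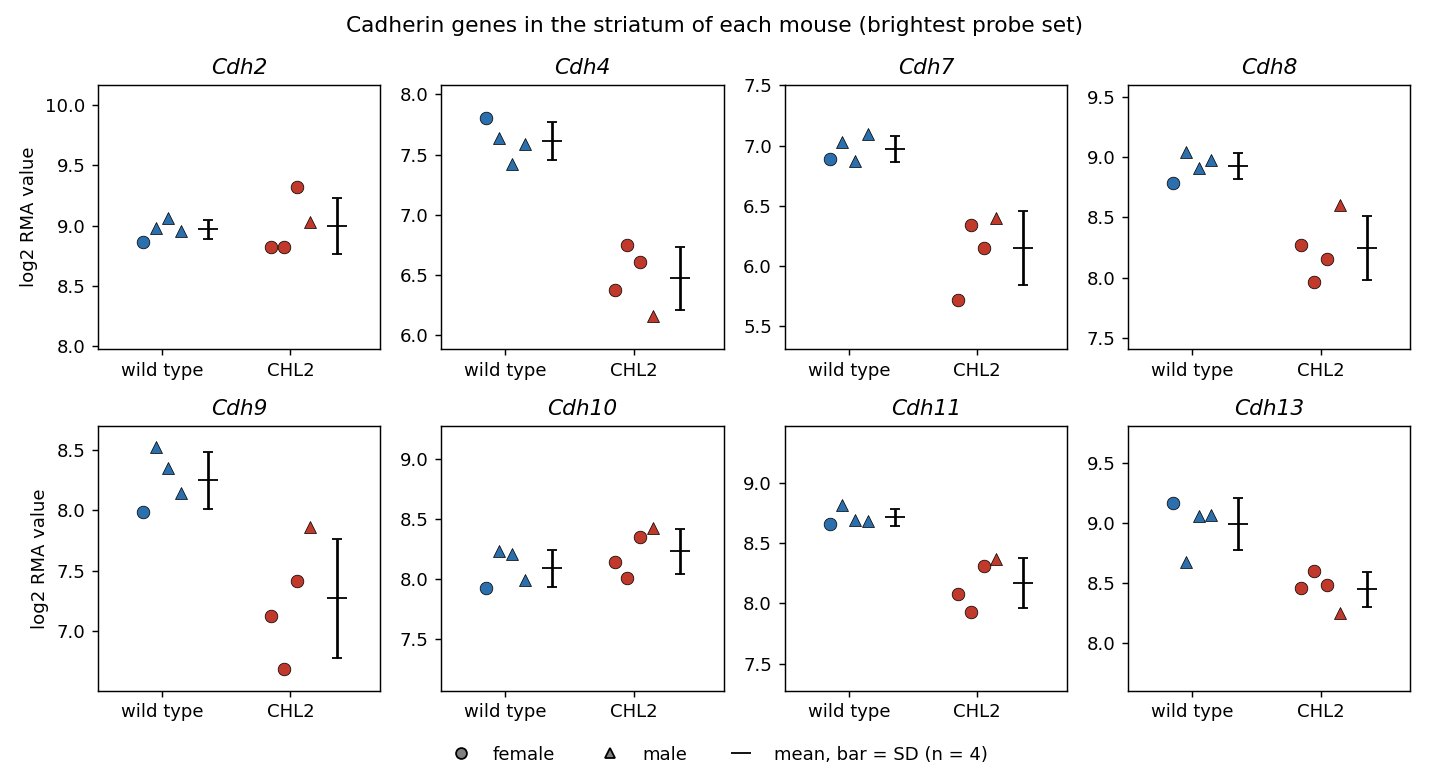
Log2 RMA values of the 8 measured cadherin genes in each mouse, 1 panel per gene with a vertical axis spanning the same number of log2 units, circles for females, triangles for males, and the mean with its SD (n = 4) beside each group. In Cdh4, Cdh7, Cdh8, Cdh9, Cdh11 and Cdh13 all mutants lie under all wild-type mice, while Cdh2 and Cdh10 overlap.

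Among the type I genes, Cdh4 encodes R-cadherin, first described in retina. In the wild-type mice 161, 170, 180 and 200 it stood at 7.80, 7.64, 7.43 and 7.59, and in the mutants 141, 153, 154 and 191 at 6.37, 6.75, 6.60 and 6.16. The lowest wild-type mouse was above the highest mutant, and the single male mutant was the lowest of all 8 mice. The group means were 7.61 ± 0.16 (SD, n = 4) and 6.47 ± 0.26, and the log2 difference was -1.31 (SE 0.11). A second probe set for Cdh4 went from 7.16 ± 0.20 (SD, n = 4) in wild-type mice to 5.68 ± 0.36 in mutants, a log2 difference of -1.58 (SE 0.19), again with no overlap. The third lay at 3.10 to 3.63 in all 8 mice, where all values were under 5 (log2 of 32), a level used here to mark signal near background.

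Cdh2 encodes N-cadherin, the most widely expressed classical cadherin of neurons and glia. It stood at 8.87, 8.98, 9.07 and 8.96 in wild-type mice 161, 170, 180 and 200 and at 8.82, 8.82, 9.32 and 9.03 in mutants 141, 153, 154 and 191. The mutants spread to both sides of the wild-type values, and the log2 difference was 0.08 (SE 0.13, 95% interval -0.21 to 0.36). The second Cdh2 probe set gave 0.14 (SE 0.15), with mutant 153 at 7.32 and the other 7 mice between 6.68 and 6.83.

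Among the type II genes, Cdh7 stood at 6.89, 7.03, 6.87 and 7.10 in the wild-type mice in the same order, and at 5.71, 6.34, 6.15 and 6.39 in the mutants. No mutant reached the lowest wild-type mouse, and mutant 141 lay furthest down. The log2 difference was -0.71 (SE 0.15), from 6.97 ± 0.11 (SD, n = 4) to 6.15 ± 0.31. The other 2 probe sets for Cdh7 were also lower in the mutants, by -0.30 (SE 0.12) with an overlap between wild-type 161 at 6.39 and mutant 153 at 6.41, and by -0.48 (SE 0.14) with no overlap at values of 4.63 to 5.57.

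Cdh8, a type II cadherin known from projections between brain regions, stood at 8.79, 9.04, 8.91 and 8.98 in wild-type mice and at 8.27, 7.96, 8.15 and 8.60 in mutants. The male mutant 191 came closest to the wild-type group and still lay under the female wild-type 161. Means were 8.93 ± 0.11 (SD, n = 4) and 8.25 ± 0.27, a log2 difference of -0.52 (SE 0.10). Its second probe set differed by -0.32 (SE 0.12), with mutant 191 at 6.87 just under wild-type 161 at 6.87 (6.868 and 6.871). The third, with all values under 5, differed by -0.04 (SE 0.11).

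Cdh9, which is known from synapses of hippocampal mossy fibres, had 1 probe set and the widest spread among mutants. Wild-type mice stood at 7.99, 8.52, 8.35 and 8.15, and mutants at 7.12, 6.68, 7.42 and 7.86. Mutant 191 came closest to the lowest wild-type mouse, 161, and mutant 153 lay furthest down. The plain difference of the means, 8.25 ± 0.24 (SD, n = 4) against 7.27 ± 0.50, was -0.98, and with sex as a term the log2 difference was -0.70 (SE 0.18).

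Cdh10 stood at 7.92, 8.24, 8.21 and 7.99 in wild-type mice and at 8.14, 8.01, 8.35 and 8.42 in mutants. The groups overlapped, and the log2 difference was 0.26 (SE 0.11, 95% interval 0.02 to 0.50), so the model's interval lies above 0 while the gene did not pass over all genes. A second probe set gave 0.17 (SE 0.18), and the other 2, with all values under 5, gave -0.02 each. In the RefSeq gene order (GRCm38.p6), Cdh10 lies next to Cdh9 with no protein-coding gene between them, and next to Cdh12 on its other side.

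Cdh11, named OB-cadherin after the bone-forming cells in which it is abundant, stood at 8.66, 8.82, 8.70 and 8.69 in wild-type mice and at 8.08, 7.93, 8.31 and 8.37 in mutants. The wild-type values lay close together, all above every mutant. The log2 difference was -0.46 (SE 0.11), from 8.72 ± 0.07 (SD, n = 4) to 8.17 ± 0.21. The second probe set, at 6.19 ± 0.18 (SD, n = 4) and 5.48 ± 0.29, gave -0.57 (SE 0.14) with no overlap. Cdh11 is the next protein-coding gene to Cdh8 in that gene order, and Cdh5 follows it.

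Cdh13, which also binds the fat-cell hormone adiponectin in heart and vessels, stood at 9.16, 8.67, 9.06 and 9.07 in wild-type mice and at 8.45, 8.60, 8.48 and 8.25 in mutants. Wild-type 170 lay just above mutant 153, and the other 3 wild-type mice well above all mutants. The log2 difference was -0.67 (SE 0.11), from 8.99 ± 0.22 (SD, n = 4) to 8.45 ± 0.15. A second bright probe set went from 8.51 ± 0.06 (SD, n = 4) to 7.91 ± 0.18, a log2 difference of -0.56 (SE 0.11), and in it wild-type 170 was the highest of all mice at 8.59. The low value of 170 was therefore seen in 1 of the bright probe sets and not in the other. The remaining 2 probe sets had all values under 5 and differed by -0.39 (SE 0.27) and 0.07 (SE 0.12).

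Over all 22 probe sets, 17 had a log2 difference below 0 and 5 above, and 6 had all values under 5. In a model over the 45037 probe sets, 8 of the 22 passed, all lower, where 6.70% of all probe sets passed in either direction. Cdh9, whose gene passed over genes, did not pass among probe sets. Of the genes with several probe sets above background, each of Cdh4, Cdh7, Cdh8, Cdh11 and Cdh13 had 2 or 3 that were all lower, and each of Cdh2 and Cdh10 had 2 that were both above 0.

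**Figure D2:**
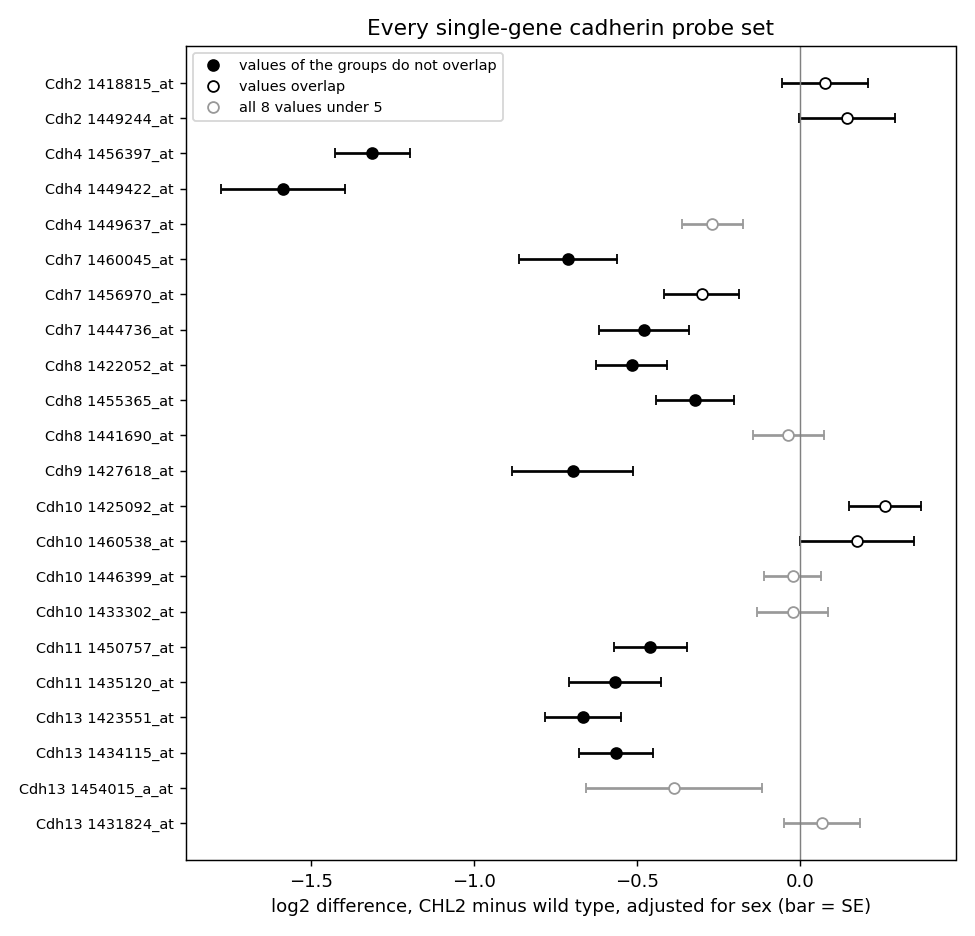
Log2 difference between CHL2 and wild-type mice, adjusted for sex, with its SE for each of the 22 single-gene cadherin probe sets, filled where the groups were fully apart and grey where all 8 values lay under 5. The 2 bright Cdh4 probe sets stand furthest left, at -1.31 and -1.58, and the bright probe sets of Cdh2 and Cdh10 lie right of 0.

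Mice 161 and 191 carry the comparison once sex is a term, since each is the only animal of its sex in its group. Mutant 191 was the highest or lowest mutant in 7 of the 8 genes, highest for Cdh7, Cdh8, Cdh9, Cdh10 and Cdh11 and lowest for Cdh4 and Cdh13. Wild-type 161 was the highest or lowest of its group in 7 of 8 as well, lowest for Cdh2, Cdh8, Cdh9, Cdh10 and Cdh11 and highest for Cdh4 and Cdh13. Without 161 the count that passed went from 6 to 1 (Cdh4), and the share of all genes that passed went to 4.75%. Without 191 the count was 2 (Cdh4 and Cdh8), with 3.86% of all genes. In fits with no sex term, 6 passed without 161, with 13.2% of all genes, and 6 without 191, with 13.7%.

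Within each sex the sign of the difference in the 6 lower genes is fixed, since their groups do not overlap, so only their sizes are given. The female mutants differed from female wild-type 161 by -1.23 in Cdh4, -0.91 in Cdh9, -0.82 in Cdh7, -0.66 in Cdh8, -0.65 in Cdh13 and -0.56 in Cdh11. Male mutant 191 differed from the male wild-type mice by -1.39 in Cdh4, -0.69 in Cdh13, -0.60 in Cdh7, -0.48 in Cdh9, -0.37 in Cdh8 and -0.36 in Cdh11. An interaction term in limma asked whether the genotype difference itself differed between the sexes. It passed for 0 of the 8 genes after adjustment, where 0.0055% of all genes passed. At an unadjusted p under 0.05 the number was 0 of 8, against 5.04% of all genes. The SE of that term ran from 0.20 to 0.35, so only a large difference between the sexes could have been seen with 1 mouse in 2 of the 4 combinations.

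The comparison of the sexes was not itself the one used to choose the genes, and came from the same limma fit. It is not independent of that choice, since 3 of 4 mutants but 1 of 4 wild-type mice were female. A choice by the plain difference between the genotypes can also favour genes that differ by sex, so these counts are a description. After adjustment 0 of the 8 differed between males and females, where 0.0275% of all genes did. At an unadjusted p under 0.05 the number was 4 of 8, against 10.6% of all genes. These were Cdh8 at 0.33 higher in males (SE 0.10, adjusted p = 0.356), Cdh9 at 0.57 higher (SE 0.18, adjusted p = 0.357), Cdh10 at 0.24 higher (SE 0.11, adjusted p = 0.464) and Cdh4, whose log2 difference, male minus female, was -0.34 (SE 0.11, adjusted p = 0.360). None is called a difference between the sexes.

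**Figure D3:**
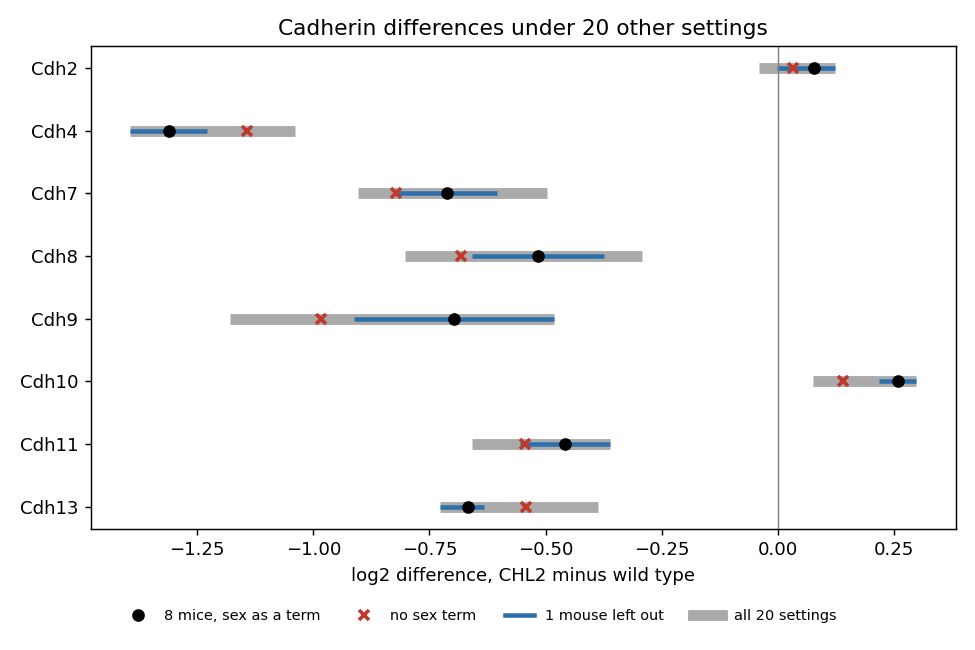
Log2 difference between CHL2 and wild-type mice for each cadherin gene in the model with all 8 mice and sex as a term (black), without the sex term (red cross), over fits that leave out 1 mouse (blue) and over 20 other settings (grey). Cdh9 has the widest range, -1.18 to -0.48, and the range of Cdh2 crosses 0, at -0.04 to 0.12.

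The cell types of the striatum were read from marker lists, and their part in the cadherin differences was not tested. All 11 measured markers of medium spiny neurons, the main striatal output neurons, were lower in the mutants, with a mean centred level of -0.87 to -0.62 in mutants and 0.66 to 0.80 in wild-type mice. In bulk tissue, fewer cells of a type and less RNA per cell cannot be told apart. Of 10 cortical projection neuron markers 1 passed as lower, Fezf2, which had 3 of 8 values under 5. A log2 difference above 0 was seen in 1 of the 10. The list's level ran from -0.50 in mutant 191 to 0.42 in mutant 154 and from -0.14 to 0.37 in wild-type mice. These mice thus differed in it within each group. In limma's sex term 6 of the 10 were at an unadjusted p under 0.05, against 10.6% of all genes. Since 191 is the only male mutant, its low level of these markers cannot be told from its sex. Of 7 astrocyte markers 1 passed as higher (Gfap), but only 2 of the 7 had a log2 difference above 0, with a median of -0.08. The levels of that list overlapped, at -0.05 to 0.06 in mutants and -0.10 to 0.08 in wild-type mice. One marker each passed as lower among 10 of interneurons (Nos1), 5 of oligodendrocytes (Mobp), 9 of septal, pallidal or thalamic neurons (Lhx2) and 7 of choroid plexus or ependyma (Ccdc153). In the same order, 1 of 10, 3 of 5, 4 of 9 and 1 of 7 had a log2 difference above 0. Over all genes 6.01% passed as lower and 6.40% as higher, and nothing is read from 1 marker in so short a list. Of 4 oligodendrocyte precursor markers 0 passed and all 4 lay above 0. Their levels were 0.00 to 0.11 in mutants and -0.12 to 0.01 in wild-type mice. Of 5 microglia markers 0 passed, and 2 lay above 0. The levels of the septal, pallidal or thalamic list lay at -0.18 to 0.04 in mutants and just above, at 0.04 to 0.08, in wild-type mice. Of 6 markers of mural cells, which wrap small vessels, 0 passed limma's test and 1 was at an unadjusted p under 0.05, but all 6 lay below 0 and the list's levels did not overlap, at -0.24 to -0.07 in mutants and -0.04 to 0.39 in wild-type mice. Of 6 endothelial markers 1 was lower (Cdh5), and the list's levels were -0.19 to 0.05 in mutants and 0.02 to 0.22 in wild-type mice. Among markers of fibroblasts of the brain's covering, which carry Cdh11 in many tissues, 0 of 7 passed limma's test, 1 was at an unadjusted p under 0.05, and their levels overlapped, at -0.15 to 0.23 in mutants and -0.11 to 0.15 in wild-type mice. Markers of choroid plexus and ependyma were highest in mutant 141 at 0.89 and wild-type 161 at 0.72, against -0.67 to 0.11 in the other 6 mice. Without both of these mice 1 of the 8 cadherins passed, with 4.18% of all genes, and with no sex term as well 6 passed, with 11.1% of all genes. Without 161 alone the count was also 1 (4.75% of all genes), and without 141 alone it was 6 (11.2%). Since 161 is the only wild-type female, the fits with a sex term cannot tell its choroid plexus markers from its sex.

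Of the classical cadherins outside the 9, 9 of 10 were measured, and since the choice of the 9 left them out their values are a description too. Cdh5, the cadherin of blood vessel endothelium, was lower, and the other 8 did not pass. Cdh5 lay at 4.83, 4.63, 4.63 and 4.69 in wild-type mice and 4.60, 4.17, 4.35 and 4.20 in mutants. Those values are all near background, so its log2 difference of -0.45 (SE 0.11) rests on weak signal, and at a floor of 32 it was 0. It also did not pass without 161 or without 191. Without 141, and without 141 and 161, 1 of the 9 passed as higher. Cdh1, Cdh3 and Cdh18 had all values under 5 as well. Cdh22, Cdh6, Cdh19, Cdh20 and Cdh15 were above background with log2 differences of 0.03 to 0.35, and the median of the 9 was 0.09. For Cdh22 the groups were fully apart with the mutants higher, at 8.03 to 8.21 against 7.72 to 7.96, a log2 difference of 0.25 (SE 0.09).

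A list of 12 catenins, p120 family members and genes named for catenins, called the catenins here, had 0 that passed limma's test. Of these 12 genes, 3 were at an unadjusted p under 0.05, which 25.9% of all genes were. Ctnnb1, beta-catenin, stood at 11.93, 11.80, 11.92 and 11.86 in wild-type mice and 11.94, 11.98, 12.08 and 12.01 in mutants, narrowly apart, with a log2 difference of 0.11 (SE 0.08, adjusted p = 0.472). Ctnna2, the alpha-catenin of neurons, differed by 0.17 (SE 0.10, adjusted p = 0.333) and Ctnnd2, the neuronal delta-catenin, by -0.13 (SE 0.10, adjusted p = 0.456). On the average of its 2 probe sets Ctnnd2 passed as lower, at -0.26 (adjusted p = 0.0398), and over its 20 other settings the adjusted p ran up to 0.901. Ctnnd1, p120-catenin, stood at 6.47, 6.32, 6.47 and 6.60 in wild-type mice and 6.79, 6.62, 7.04 and 6.79 in mutants, with no overlap, and its log2 difference of 0.34 (SE 0.12) had an adjusted p of 0.0929. That gene passed in 2 of 20 other settings, without mutant 153 and without the sex term. The list's median was 0.09.

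Of 27 other measured partners of the adherens junction, the belt of cadherin contacts between cells, 1 passed as higher and 0 as lower. Over all genes 6.40% passed as higher and 6.01% as lower. Groups were fully apart in 5 of the 27 (18.5%), against 20.7% of all genes. The list's median log2 difference was 0.07. Ssx2ip, an afadin-binding protein of junctions and centrosomes, rose from 8.29 ± 0.11 (SD, n = 4) to 8.66 ± 0.09, with values of 8.33, 8.14, 8.38 and 8.32 against 8.60, 8.67, 8.60 and 8.78. Its log2 difference was 0.40 (SE 0.09, adjusted p = 0.0188), but the call was lost without 161, without 191 and when its 4 probe sets were averaged. Of those 4 probe sets 1 lay the other way, and 2 had all values under 5. Without the sex term 5 genes of the list passed, 3 higher and 2 lower.

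Of 21 more distant members of the cadherin superfamily, 2 passed as higher and 1 as lower, and 11 had all values under 5. Fat1, a giant cadherin of cell polarity, stood at 9.09, 8.81, 8.71 and 8.91 in wild-type mice and 9.35, 9.56, 9.43 and 9.76 in mutants. Every mutant lay above every wild-type mouse, a rise of 0.66 (SE 0.13, adjusted p = 0.00848) that did not pass without 191. A floor at 32 left all Fat1 values and their difference unchanged, with an adjusted p of 0.0593. That floor changed values of other genes in the same model. Dsg2, a desmosomal cadherin, rose by 0.72 (SE 0.11, adjusted p = 0.00232) from wild-type values all under 5. With those values raised to the floor the difference was 0.55 (adjusted p = 0.0336). Of its 6 probe sets 4 lay higher and 2 lower, and 4 of the 6 had all values under 5. Dsg2 did not pass without 191 or when all 6 were averaged. Cdhr1, a cadherin of photoreceptors, had overlapping groups and a log2 difference of -0.81 (SE 0.21, adjusted p = 0.0298), and passed in 10 of 19 other settings. It did not pass without 161, without 180, without 191 or with the floor at 32 (adjusted p = 0.131). The median of this list was -0.03. None of these 4 lists had a median as far from 0 as that of the chosen genes that were measured. Those genes were picked with their values in both genotypes known, so nothing is read from this contrast, and it was not tested.

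**Figure D4:**
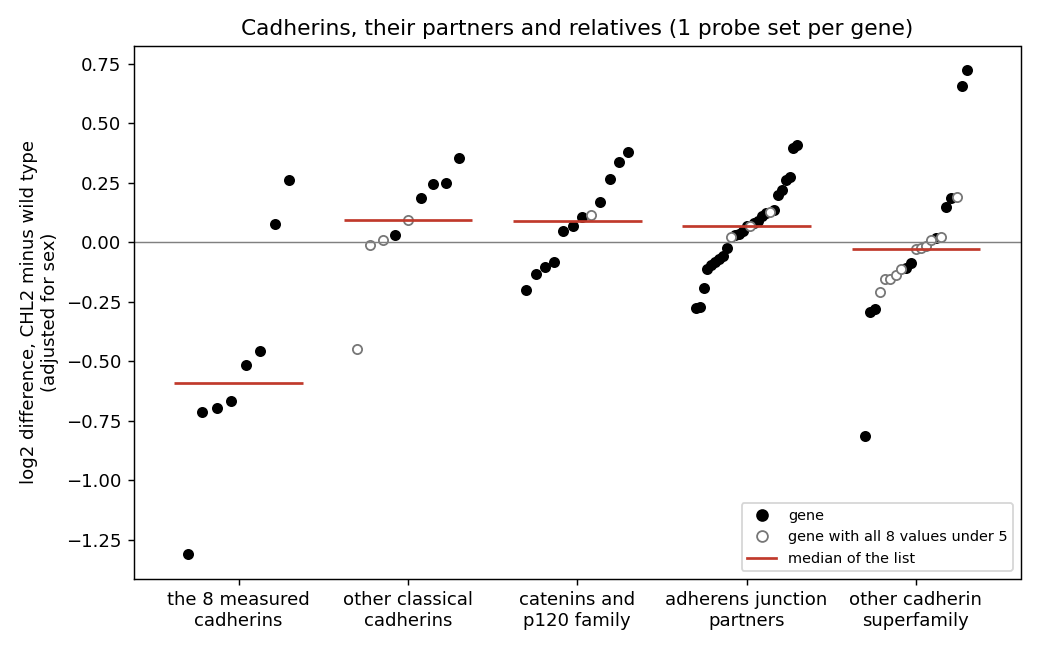
Log2 differences between CHL2 and wild-type mice, adjusted for sex, for the 8 measured cadherins and 4 lists of other genes, 1 point per gene, open where all 8 values lay under 5, with the list's median in red. The medians are -0.59 for the chosen cadherins, 0.09 for other classical cadherins, 0.09 for catenins, 0.07 for junction partners and -0.03 for other superfamily members.

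The genes whose profile over the 8 mice came closest to each member were found by the root mean square difference of centred log2 values, for the 4 members that differed by 0.58 or more. For Cdh4 they were Hrh3, a histamine receptor (0.16), the clock factor Npas2 (0.18) and the potassium channel partner Kcnip2 (0.18). For Cdh7 they were the sodium-proton exchanger Slc9a2 (0.10), the potassium channel partner Dpp10 (0.13) and the phosphatase Ptpn13 (0.14). For Cdh9 they were Bmper, Dock4 and Egr3, each at 0.18. Arhgap33 (0.07), the receptor kinase Tyro3 (0.07) and Coro2a (0.08) came closest to Cdh13. Each of these 12 genes had a log2 difference below 0, from -1.36 for Npas2 to -0.48 for Bmper, a sign set by choosing the genes nearest to members that were lower. Some had weak signal, with 4 of 8 values under 5 in Slc9a2, 5 in Coro2a and 3 in Bmper. In all 3 genes closest to Cdh13, wild-type 170 was the lowest wild-type mouse and 191 the lowest mutant, as in Cdh13 itself, which is what the measure selects for.

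Start sites were looked up to see whether the genes that were lower share sequence just upstream. RefSeq promoter windows (GRCm38.p6) were held for 5 of the 9 genes, with 3 starts for Cdh7 and 1 each for Cdh8, Cdh9, Cdh10 and Cdh12. The 30 bases before the start are shown for 3 genes that were lower and for Cdh10, which was not, in lower case with any match to 4 promoter motifs on either strand in capitals. These are the TATA box (TATAAA), the GC box (GGGCGG), the CCAAT box (CCAAT) and the cyclic AMP response element (TGACGTCA). For Cdh7 the most upstream start is given.
Cdh7, chr1:109982870-109982899, plus strand: gctgagcaggtgccggtccgctgcttctgt
Cdh8, chr8:99416472-99416501, minus strand: ctgagctctgcCCAATgagatccgtcaggg
Cdh9, chr15:16728885-16728914, plus strand: ttaaaagtggtgctgaaagagaggctcagc
Cdh10, chr15:18820299-18820328, plus strand: tcttttaaaacgtagttacaagagcttcac

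Over the 250 bases before the start, G and C made up 60.8% in Cdh7, 64.4% in Cdh8, 48.0% in Cdh9 and 36.8% in Cdh10, where the median of 32851 windows was 52.4%. The other 2 starts of Cdh7 had 61.6% and 50.4%, so its starts lie on both sides of that median. A CCAAT box was found in the windows of Cdh8 and Cdh9, in 1 of the 3 of Cdh7 and in 33.9% of all windows, and a GC box in Cdh8 and in 32.7% of all. The TATA box (12.4% of all windows) and the cyclic AMP response element (1.55%) were in none of these windows. A match is a description of letters and not of a bound factor, and with so few genes no comparison between lower and other genes was made.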

How the data were processed

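Striatal RNA of 8 mice was measured on 1 array each. The authors deposited log2 values, 1 per probe set and array, and per the submitters' processing notes used RMA and the affy package. No version, and no list of the arrays normalized together, was given in the sources used here. RMA gives arrays a common distribution and compresses differences of dim genes. Array medians lay between 4.95 and 4.98.

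Of 45101 probe sets 64 controls were left out, and 34945 had 1 gene symbol in the platform annotation. Each gene was its brightest single-symbol probe set. limma 3.58.1 in R 4.3.3 (lmFit, eBayes) was fitted to all genes, or all probe sets, with genotype and sex as terms and Benjamini-Hochberg adjustment at 0.05. It was tested on simulated data. The labels' mouse numbers name single animals and are not shared between groups.

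The members and gene lists were chosen with earlier results of these data known. Named outside the members are Ctnnb1, Ctnna2, Ctnnd1, Ctnnd2, up to 5 genes with an adjusted p under 0.05 per list, and the 3 closest profiles of members differing by 0.58 or more. Fezf2, Gfap, Nos1, Mobp, Lhx2, Ccdc153 and list members given by range were named after their values were seen. A marker list's level averages its genes after each is centred on its mean over 8 mice. Alternatives left out the sex term, mice, dim genes or the plain prior, or changed normalization, floor, array weights or probe set summary. Leaving out 141 with 161, and 154 with 191, was added after seeing the data.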

Additional observations from a re-analysis of the deposited data

Results flagged for a closer look

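Of 62 groups of 4 values checked, 1 had a mouse far from the other 3, where about 1 in 20 would by chance. It was the second Cdh8 probe set in the wild-type group, where female 161 stood at 6.87 and the males between 7.21 and 7.26.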

How the results depend on the processing

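Over 20 other settings the log2 difference ran from -1.39 to -1.04 in Cdh4, -0.90 to -0.50 in Cdh7, -0.80 to -0.29 in Cdh8, -1.18 to -0.48 in Cdh9, -0.66 to -0.36 in Cdh11 and -0.73 to -0.39 in Cdh13, values of the comparison on which these genes were chosen. With 1 mouse left out, 1 to 6 cadherin genes passed, where 3.86% to 12.4% of all genes did. Of their probe sets 2 to 9 passed in these fits. The share over all probe sets was taken only in the main model, at 6.70%. With values floored at log2 of 32, 3 genes and 2 probe sets passed (8.79% of all genes), while the log2 differences of the 8 genes stayed as they were. Without 141 and 161, 1 gene passed (4.18% of all genes), and without 154 and 191, 3 (3.04%). By sex and for the interaction the count was 0 in every setting run.

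For other classical cadherins the count was 0 to 2 with 1 mouse left out, the 2 being 1 higher and 1 lower, and the 1 without 141 and 161 was higher. It was 0 without the sex term and either 161 or 191, with the floor, without dimmer genes, and without 154 and 191. For catenins it was 0 to 2 with 1 mouse left out, 2 without the sex term, and 1 without it and either 161 or 191, with a trended and robust prior, without dimmer genes and, as a lower call, on the mean of probe sets. For junction partners it was 0 to 2 with 1 mouse left out. It was 5 without the sex term, alone or with 161 or 191 left out, with the trended prior and without dimmer genes, 4 with the floor, 3 on quantile normalization again or the mean of probe sets, and 2 with array weights. It was 0 without 141 and 161, or 4 with no sex term as well, and 0 without 154 and 191. For other superfamily members it was 0 to 3 with 1 mouse left out, and 1 with the floor or without 154 and 191. The cause of these moves was not tested. With 4 mice a group and probe sets near background, small differences were not detectable.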
